A study of Homo sapiens with 8 samples.

Results

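The genes described here are 41 direct targets of p53 that act in DNA repair, metabolism, cell death, growth control, signalling and RNA handling. They were taken by gene symbol from a list that leaves out MDM2, CDKN1A, the BCL2 family, the death receptors, the sestrins and the polo-like kinases. All 41 were present among the 23885 genes of the tables, and each was read from its row with the most counts on average. The question was which of them kept and which lost their induction by 5-fluorouracil (5-FU) when 3-MB-PP1 followed.

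The samples were 8 RNA-seq libraries of the human colorectal cancer line HCT-116, with 2 libraries in each of 4 groups. The first treatment lasted 12 h and was 40 µM 5-FU or its solvent DMSO. After a wash the second treatment lasted 4 h and was 2.5 µM 3-MB-PP1 or DMSO, so the cells were not in 5-FU during the second. The groups were DMSO then DMSO (vehicle), 5-FU then DMSO (5-FU alone), DMSO then 3-MB-PP1 (3-MB-PP1 alone), and 5-FU then 3-MB-PP1 (both drugs). 5-FU is a fluoropyrimidine that disturbs thymidylate synthesis and RNA metabolism. 3-MB-PP1 is a bulky ATP analogue made to block kinases with an enlarged ATP pocket, and the series text speaks of inhibition of CDK7, but the labels name no engineered kinase allele.

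p53 is a transcription factor that is stabilised after DNA damage or nucleolar stress and binds a paired decamer element near its target genes. Its targets include enzymes that recognise and bypass DNA lesions, enzymes of nucleotide, lipid and redox metabolism, regulators of apoptosis and autophagy, inhibitors of growth signalling, and secreted cytokines. CDK7 is part of the general transcription factor TFIIH, phosphorylates RNA polymerase II early in transcription, and activates other cyclin-dependent kinases.

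Sequences matching the p53 element were looked for in the RefSeq promoter windows of GRCh38.p14, which run from 250 bases before to 50 bases after a gene's start. A match was a pair of decamers with a spacer of 0 or 1 base, each with C at position 4 and G at position 7, and at most 3 mismatches to the published p53 consensus over the pair. The element reads the same on both strands, so 1 search covered both. Of the 41 genes, 34 had a window and 12 of these held a match (35.3%), whereas 795 of 27305 genes with a window did (2.91%). The genes without a window were FBXO22, LIF, TP53INP1, TRIM22, RRM2B, CMBL and PHLDA3. The sequences below are shown because they are the stretches that resemble the binding site of the factor that defines these genes. Capitals mark the central 4 bases of each decamer, and each sequence runs 5′ to 3′ on the gene's strand.
DDB2: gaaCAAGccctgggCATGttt
AEN: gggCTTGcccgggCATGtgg
HSPA4L: aaaCATGtttccaCATGttc
PANK1: gggCAGGactgggCATGctc
DCP1B: gggCAGGcctgggCTTGtcg
GDF15: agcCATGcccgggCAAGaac
FDXR: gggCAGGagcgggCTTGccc
ASTN2: cagCATGctggggCTTGtcg
RPS27L: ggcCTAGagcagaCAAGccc
The DDB2 sequence, at chr11:47214979-47214999 on the plus strand, had 0 mismatches and a spacer of 1 base, and its first base lay 6 bases after the start. Those of AEN (chr15:88621306-88621325, plus), HSPA4L (chr4:127783509-127783528, plus), PANK1 (chr10:89645256-89645275, minus) and DCP1B (chr12:2004650-2004669, minus) had 2 mismatches. Those of GDF15 (chr19:18386186-18386205, plus), FDXR (chr17:74872996-74873015, minus), ASTN2 (chr9:116687227-116687246, minus) and RPS27L (chr15:63157527-63157546, minus) had 3. CES2, MR1 and TP53AIP1 also held a match with 3 mismatches. A match describes the letters in this window and does not show that p53 was bound there.

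Gene counts per library ranged from 10572101 to 50462215, and all 41 genes entered the test. The deepest library was the first replicate of 3-MB-PP1 alone. Levels are given as CPM, each count scaled to the library's gene counts times its TMM scaling factor (0.9772 to 1.016). The tables' RPKM serves where genes are compared with each other. The epithelial markers EPCAM (166 to 218 CPM), KRT8, KRT18, KRT19, CDH1 (18.2 to 21.4 CPM) and CDX2 (12.7 to 19.5 CPM) were present in all 8 libraries. The colonic markers CDX1 (0 in all libraries), VIL1, KRT20 and LGALS4 stayed at or under 1.95 CPM. COL1A2 and DCN were at 0 in all libraries, and PTPRC and CD3E did not exceed 0.188 CPM. COL1A1 (11.8 to 20.01 CPM), CD68 (6.01 to 7.51 CPM) and PECAM1 (4.80 to 7.56 CPM) were also present, COL1A1 at levels like those of CDX2. In RNA from whole cultures, a smaller share of cells with a transcript and less of it per cell cannot be told apart.

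With 5-FU alone 35 of the 41 genes rose and 2 fell against vehicle, while 21.3% of the 15705 genes tested rose, 22.7% fell and 44.0% were called in either direction. A gene was called where its adjusted p was under 0.05 in edgeR's quasi-likelihood test with Benjamini-Hochberg adjustment over all genes tested. The median log2 fold change was 1.03 over the 41 genes and 0.00299 over all genes tested. In all 37 called genes, and in 39 of the 41, both libraries of one group lay above both of the other. With 2 libraries per group a call largely requires this, so it adds no support to the calls. When 3-MB-PP1 followed, 33 of the 41 genes rose with 5-FU and 0 fell, against the DMSO libraries that also received 3-MB-PP1, with a median of 0.98. Over all genes tested 19.6% rose, 19.8% fell and 39.5% were called in that comparison. The 2 comparisons share no library.

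Of the 35 genes that rose with 5-FU alone, 32 also rose when 3-MB-PP1 followed, and LIF, DCP1B and TRIM22 did not pass. Of these 3, LIF had a called interaction. TRIM22 is counted among the 35 but entered the test only through its counts in the group where it was high, so its call is no support for the count. Whether the induction itself differed was tested as the interaction, which is the 5-FU effect before 3-MB-PP1 minus the 5-FU effect before DMSO. It was lower in 5 of the 41 genes and higher in 0, while 4.18% of all genes tested were called, 2.06% lower and 2.13% higher. The 5 were LIF, SERTAD1, PHLDA3, GDF15 and SLC12A4. They were among the 22 of the 41 genes that rose by over 1 log2 unit with 5-FU alone (22.7%). Of all 428 genes with such a rise, 88 had a lower interaction (20.6%), which is a like share. At an unadjusted p under 0.05 in edgeR the interaction was lower in 7 of the 41 genes and higher in 3 (CMBL, HSPA4L and RRM2B). The share of all genes at that limit was not computed, so these counts are only a description. Limma on RPKM called 2 of the 41 genes, both lower.

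Another 28 genes rose in both settings without a called interaction. Their estimated interactions ran from -0.73 to 0.37, and for 23 of them the 95% interval lay within 0.5 log2 units of 0 on either side. The 5 with a wider interval were ACER2, CMBL, PRDM1, SPATA18 and TP53I3, so that for these a difference of this size was not excluded by the data. In simulated data at this depth the fit called 42.5% of interactions planted at -0.5 and 90% of those planted at -1. There 15505 genes had no planted interaction, whereas 657 of 15705 genes had a called one in the data. The adjustment over all genes was thus stricter in the simulation, and these shares do not give the power for the genes described here. A smaller loss of induction than that of LIF could still be missed where the interval is wide. For PRDM1, at -0.73, it ran from -1.45 to -0.006.

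**Figure D1:**
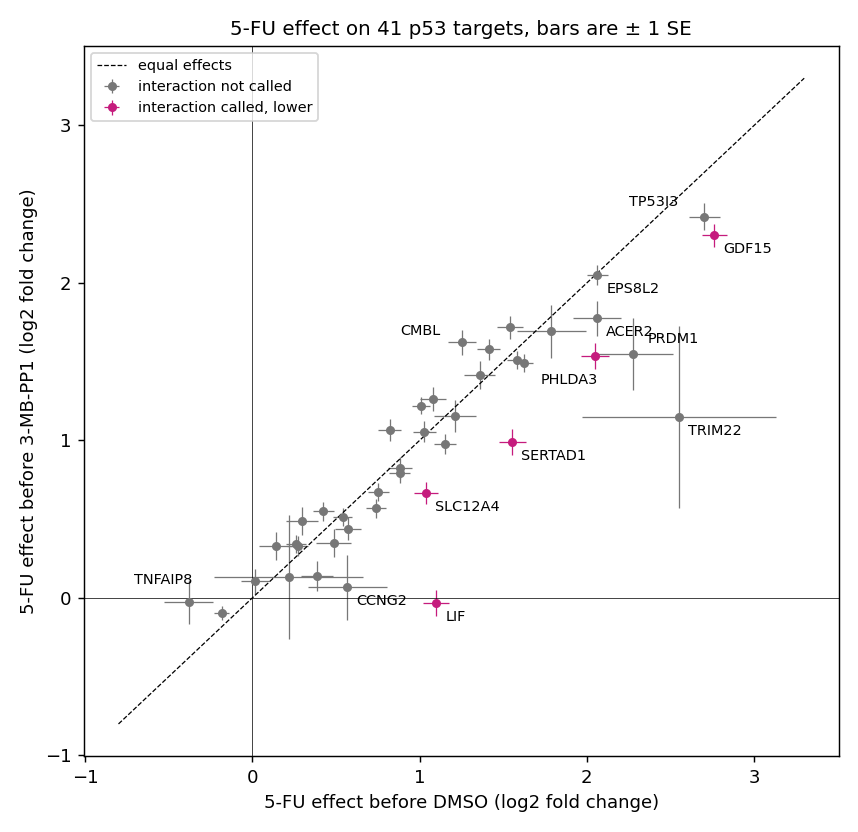
The log2 fold change of 5-FU followed by DMSO (horizontal) is plotted against that of 5-FU followed by 3-MB-PP1 (vertical) for the 41 genes, with bars of 1 standard error and a dashed line of equal effects. LIF lies at 1.10 and -0.03, and SERTAD1, PHLDA3, GDF15 and SLC12A4 lie below the line with a called interaction, while most other genes lie near it.

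LIF, a cytokine of the interleukin-6 family, had a 5-FU induction that was not detected after 3-MB-PP1 and a called interaction. Its level was 27.6 and 28.7 CPM in vehicle, 61.3 and 59.6 with 5-FU alone, 28.8 and 28.7 under 3-MB-PP1 alone, and 26.5 and 29.6 with both drugs. The 5-FU-alone libraries stood above all 6 others, and these 6 lay within 26.5 to 29.6 CPM. LIF rose by 1.10 log2 units (SE 0.08, edgeR adjusted p = 8.31e-12) with 5-FU alone, and the effect of 5-FU before 3-MB-PP1 was -0.03 (SE 0.08, edgeR adjusted p = 0.788). The interaction was -1.13 (SE 0.11, 95% interval -1.36 to -0.90, edgeR adjusted p = 3.97e-07). It was called under 15 of 16 alternatives, with ERCC spike-in scaling as the exception. Under that scaling the LIF interaction was -1.45, and 0 of all genes tested had a called interaction. LIF lies on chromosome 22 from 30636436 to 30642840 on the minus strand (hg19) and spans 6.41 kb.

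SERTAD1, a protein with a SERTA domain that binds CDK4 and E2F complexes, kept part of its rise. Its level was 23.4 and 26.9 CPM in vehicle, 75.5 and 72.3 with 5-FU alone, 19.7 and 18.4 under 3-MB-PP1 alone, and 38.9 and 37.9 with both drugs. The groups did not overlap, and the both-drugs libraries lay between vehicle and 5-FU alone. The rise was 1.55 log2 units (SE 0.08) before DMSO and 0.99 (SE 0.08) before 3-MB-PP1, with an interaction of -0.56 (SE 0.12, edgeR adjusted p = 0.00454). This call held in 13 of 16 alternatives. It was lost without the first replicate of vehicle (adjusted p = 0.0622) or of 3-MB-PP1 alone (adjusted p = 0.0833) in edgeR, and under spike-in scaling.

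PHLDA3, a pleckstrin-homology protein that restrains AKT, measured 25.2 and 20.6 CPM in vehicle, 97.4 and 91.9 with 5-FU alone, 18.8 and 19.3 under 3-MB-PP1 alone, and 56.2 and 53.8 with both drugs. The mean CPM was 4.13 times that of its control with 5-FU alone and 2.89 times with 3-MB-PP1 in both arms. On the log2 scale the rise was 2.05 (SE 0.08) and 1.54 (SE 0.08), and the interaction was -0.51 (SE 0.12, edgeR adjusted p = 0.0124). GDF15, a secreted member of the TGF-beta superfamily that marks cell stress, measured 32.2 and 31.2 CPM in vehicle, 227 and 203 with 5-FU alone, 26.4 and 30.2 under 3-MB-PP1 alone, and 140.5 and 132 with both drugs. It had the largest rise of the 41 genes with 5-FU alone, at 2.76 (SE 0.08), and rose by 2.30 (SE 0.07) before 3-MB-PP1. Its interaction was -0.46 (SE 0.11, edgeR adjusted p = 0.0126). The genomic span of GDF15, introns included, overlaps the microRNA gene MIR3189 on the same strand. Whether reads of that precursor entered the GDF15 counts was not tested.

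SLC12A4 is a potassium-chloride cotransporter. Its level was 40.9 and 36.5 CPM in vehicle, 81.9 and 77.1 with 5-FU alone, 49.4 and 45.8 under 3-MB-PP1 alone, and 78.5 and 74.3 with both drugs. The libraries of both 5-FU groups overlapped, while 3-MB-PP1 alone stood above vehicle. The level after 5-FU changed by -0.06 with 3-MB-PP1 (SE 0.07, edgeR adjusted p = 0.567), whereas 3-MB-PP1 alone raised it by 0.32 (SE 0.07, edgeR adjusted p = 0.00234). This rise was 0.24 and did not pass without the second vehicle library (edgeR adjusted p = 0.0799) or without the first of 3-MB-PP1 alone (edgeR adjusted p = 0.0872). The interaction was -0.37 (SE 0.10, edgeR adjusted p = 0.0351). SLC12A4 overlaps LCAT on the same strand.

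The interaction calls of GDF15 and PHLDA3 held in 9 of 16 alternatives each and that of SLC12A4 in 8. Leaving out the second vehicle library, the first library of 5-FU alone, the first of 3-MB-PP1 alone or the second of both drugs each left 2 of the 41 genes with a called interaction, and leaving out the first vehicle library left 3. Without the second library of 3-MB-PP1 alone 7 genes were called, 5 lower and 2 higher (CMBL and RRM2B).

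**Figure D2:**
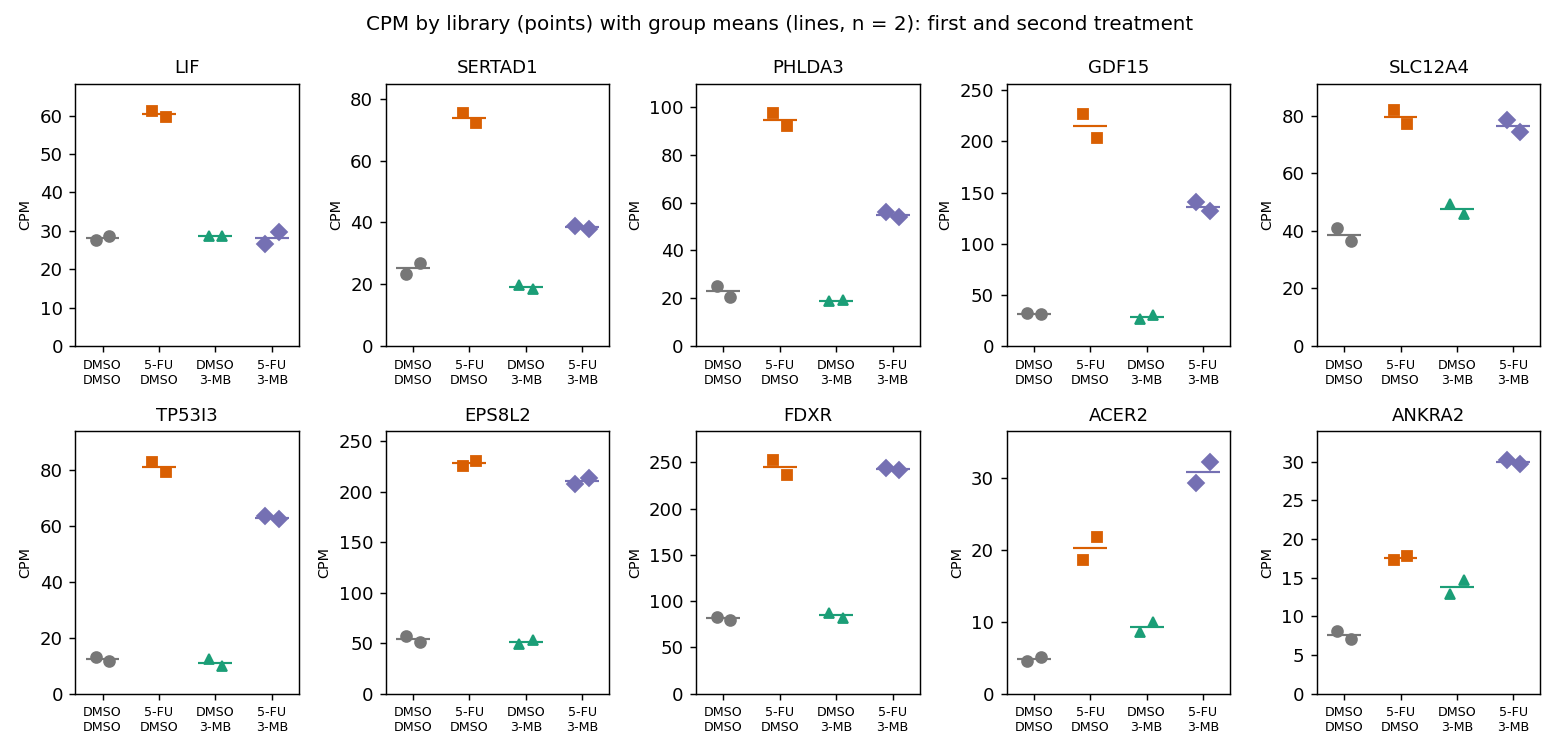
CPM in each of the 8 libraries (points) with group means (lines, n = 2) for 10 genes, by first treatment (upper label) and second treatment (lower label). LIF lies at 26.5 and 29.6 CPM with both drugs, GDF15 falls from 227 and 203 to 140.5 and 132, FDXR lies between 236 and 253 after 5-FU with either second treatment, and ANKRA2 is highest with both drugs.

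The repair and nucleotide genes had no detected loss of induction. All 5 rose with 5-FU alone and all 5 rose when 3-MB-PP1 followed, with medians of 0.74 and 0.57, no called interaction, and 95% intervals of the interaction within 0.5 log2 units of 0. XPC, which senses helix distortion in nucleotide excision repair, rose by 0.74 and by 0.57. DDB2, the damage-binding partner of XPC and the gene with the perfect match printed above, measured 58.6 and 57.7 CPM in vehicle, 78.0 and 78.2 with 5-FU alone, 60.5 and 60.3 under 3-MB-PP1 alone, and 90.2 and 86.7 with both drugs. Its rise was 0.42 before DMSO and 0.55 before 3-MB-PP1. RRM2B, the p53-inducible small subunit of ribonucleotide reductase, rose by 1.01 and by 1.22. POLH, the translesion polymerase eta, rose by 0.75 and by 0.67, and overlaps GTPBP2 on the opposite strand. REV3L, the catalytic subunit of polymerase zeta, had the smallest rise of this group, 0.27 and 0.33. The margin of 0.5 log2 units is wider than the rise of REV3L or DDB2 with 5-FU alone, so a partial loss was not excluded. For XPC the 95% interval of the interaction ran from -0.35 to 0.004.

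Among the 8 enzymes and transporters, 7 rose with 5-FU alone and 8 rose when 3-MB-PP1 followed. TP53I3, a quinone oxidoreductase, measured 13.1 and 11.8 CPM in vehicle, 82.9 and 79.2 with 5-FU alone, 12.4 and 9.97 under 3-MB-PP1 alone, and 63.5 and 62.3 with both drugs. It rose by 2.70 (SE 0.09) and by 2.42 (SE 0.09), and its interaction of -0.28 did not pass (SE 0.13, edgeR adjusted p = 0.259). FDXR, the mitochondrial ferredoxin reductase, measured 83.3 and 80.0 CPM in vehicle, 253 and 236 with 5-FU alone, 87.4 and 82.0 under 3-MB-PP1 alone, and 244 and 241 with both drugs. Its libraries separated by 5-FU and not by 3-MB-PP1, and the interaction of -0.07 had a 95% interval of -0.24 to 0.09.

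ACER2, an alkaline ceramidase of the Golgi, stood at low levels and was raised by each drug. It measured 4.52 and 5.18 CPM in vehicle, 18.6 and 21.8 with 5-FU alone, 8.62 and 9.97 under 3-MB-PP1 alone, and 29.3 and 32.3 with both drugs. CES2, a carboxylesterase, rose by 1.15 and by 0.98. CMBL, a hydrolase, measured 42.4 and 43.2 CPM in vehicle, 99.97 and 104 with 5-FU alone, 40.4 and 52.4 under 3-MB-PP1 alone, and 138 and 137 with both drugs. Its rise was 1.25 before DMSO and 1.62 before 3-MB-PP1, and the interaction of 0.37, the highest of the 41 genes, did not pass (SE 0.12, edgeR adjusted p = 0.0737). PANK1, a pantothenate kinase of coenzyme A synthesis, rose by 0.30 and by 0.49 and contains MIR107. Its call with 5-FU alone was lost in DESeq2 (adjusted p = 0.0507) and in both limma fits (adjusted p = 0.0568 and 0.0574). In edgeR the rise was 0.16 without the second vehicle library and 0.27 without the second library of 5-FU alone.

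FUCA1, the lysosomal alpha-fucosidase, did not pass with 5-FU alone. It measured 21.3 and 21.9 CPM in vehicle, 24.6 and 23.1 with 5-FU alone, 27.1 and 24.4 under 3-MB-PP1 alone, and 34.6 and 31.2 with both drugs. The change was 0.14 (SE 0.10, edgeR adjusted p = 0.265) with 5-FU alone and a rise of 0.33 (SE 0.09, edgeR adjusted p = 0.0038) before 3-MB-PP1. The interaction was 0.19 and did not pass (edgeR adjusted p = 0.488), so the 2 effects were not shown to differ.

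Of the 11 genes of death, survival and autophagy, 9 rose with 5-FU alone and 9 when 3-MB-PP1 followed, with medians of 1.03 and 1.06 and no called interaction. CYFIP2, a subunit of the WAVE complex, rose by 1.62 and by 1.49, and overlaps C5orf40 on the opposite strand. SPATA18, which acts in mitochondrial quality control, rose by 1.79 and by 1.69 from levels near 2.34 CPM. TP53INP1, a stress protein of autophagy, rose by 1.54 and by 1.72. NINJ1, a membrane protein of plasma membrane rupture, rose by 1.36 and by 1.41, and DRAM1, a lysosomal autophagy protein, by 1.08 and by 1.26.

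RPS27L, a paralog of ribosomal protein S27, rose by 1.03 and by 1.06. How the authors' counting split reads between such near-identical copies is not given in the sources used here. TRIAP1, a small mitochondrial protein that opposes apoptosis, rose by 0.88 and by 0.82. AEN, an apoptosis-enhancing nuclease, rose by 0.54 and by 0.51, and PERP, a tetraspan membrane protein, by 0.26 and by 0.34. TP53AIP1, a mitochondrial effector of apoptosis, had 6 and 15 counts in vehicle, 13 and 17 with 5-FU alone, 45 and 10 under 3-MB-PP1 alone, and 10 and 15 with both drugs. The 45 counts came from the deepest library. Its change of 0.22 with 5-FU alone did not pass (SE 0.45, edgeR adjusted p = 0.738). At this depth a change of that size was not detectable. TNFAIP8, an inhibitor of apoptosis, measured 9.73 and 12.8 CPM in vehicle, 8.49 and 8.82 with 5-FU alone, 9.32 and 9.69 under 3-MB-PP1 alone, and 8.55 and 9.96 with both drugs. It fell by 0.38 log2 units with 5-FU alone (SE 0.14, edgeR adjusted p = 0.0347), and this call was lost without the second vehicle library (adjusted p = 0.492) and in DESeq2 (adjusted p = 0.158).

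Of the 6 genes grouped under growth control and ubiquitin ligases, 5 rose with 5-FU alone and 4 when 3-MB-PP1 followed. Beside PHLDA3 and SERTAD1, FBXW7, the receptor of an SCF ligase for cyclin E and MYC, rose by 0.57 and by 0.44, and FBXO22, another F-box protein, rose by 0.88 and by 0.79. FBXO22 overlaps FBXO22OS on the opposite strand and FBXW7 contains MIR3140. TRIM22, an interferon-inducible ubiquitin ligase, had 1 and 4 counts in vehicle, 18 and 19 with 5-FU alone, 12 and 2 under 3-MB-PP1 alone, and 7 and 6 with both drugs. The count of 12 came from the deepest library, and TRIM22 reached the filter level of 0.759 CPM in 2 of 8 libraries, both of 5-FU alone. Because it passed the filter through the group where it was high, its estimate of 2.55 (SE 0.58) with 5-FU alone is given as a description. Its interaction of -1.40 had a 95% interval of -3.21 to 0.40. CCNG2, the cyclin G2 gene, measured 4.98 and 3.05 CPM in vehicle, 6.78 and 5.16 with 5-FU alone, 4.99 and 7.80 under 3-MB-PP1 alone, and 5.86 and 6.17 with both drugs. Both 5-FU-alone libraries lay above both vehicle libraries and overlapped those of the other groups. The change of 0.57 with 5-FU alone did not pass (SE 0.24, edgeR adjusted p = 0.0538).

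Of the 6 genes grouped as secreted, cell-surface or, for EPS8L2, actin-linked, 4 rose with 5-FU alone and 3 when 3-MB-PP1 followed. EPS8L2, an actin regulator of the EPS8 family, measured 57.5 and 51.5 CPM in vehicle, 225 and 230 with 5-FU alone, 49.5 and 53.04 under 3-MB-PP1 alone, and 208 and 214 with both drugs. Its rise of 2.06 (SE 0.06) before DMSO was 2.05 (SE 0.06) before 3-MB-PP1, and the interaction of -0.01 had a 95% interval of -0.20 to 0.17. EPS8L2 thus had a rise like that of PHLDA3 with no detected loss. MR1, which presents vitamin B metabolites to T cells, rose by 0.49 and by 0.35.

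KITLG, the ligand of the receptor KIT, was the most abundant of the 41 genes per transcript length, at 296 RPKM ± 3.76 (SD, n = 2) in vehicle. It measured 1663 and 1635 CPM in vehicle, 1406 and 1503 with 5-FU alone, 1161 and 1237 under 3-MB-PP1 alone, and 1097 and 1148 with both drugs. KITLG fell by 0.18 log2 units with 5-FU alone (SE 0.04, edgeR adjusted p = 0.00179), and the change before 3-MB-PP1 was -0.09 (SE 0.05, edgeR adjusted p = 0.103). By RPKM it was followed in the 5-FU-alone libraries by RPS27L (193 ± 10.2, SD, n = 2), GDF15 (179 ± 15.7) and FDXR (128 ± 7.69). The RPKM of RPS27L and GDF15 differed by less than their combined spread.

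ASTN2, which encodes astrotactin 2, gave different answers for its transcripts. The kept transcript, at chromosome 9 from 119373123 to 119449542 (hg19), had 58.6 and 61.1 CPM in vehicle, 57.6 and 63.3 with 5-FU alone, 73.6 and 62.4 under 3-MB-PP1 alone, and 67.4 and 81.4 with both drugs. Its change with 5-FU alone was 0.02 (SE 0.09, edgeR adjusted p = 0.902). The longest transcript, from 119187504 to 120177317, had 85 and 53 counts in vehicle, 322 and 353 with 5-FU alone, 227 and 57 under 3-MB-PP1 alone, and 229 and 236 with both drugs. When that transcript stood for the gene, ASTN2 rose by 1.99 with 5-FU alone (edgeR adjusted p = 4.23e-11) and by 1.96 before 3-MB-PP1 (edgeR adjusted p = 2.59e-11), with an interaction of -0.03. The kept transcript lies within the longer span, and its reads were not separated from those of the other rows. In the other 17 genes with several rows, the change with 5-FU alone differed between rows by at most 0.176 log2 units.

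All 5 genes of transcription, RNA and protein folding rose with 5-FU alone and 4 rose when 3-MB-PP1 followed. ZMAT3, a zinc-finger protein that regulates splicing, rose by 1.41 and by 1.58, and HSPA4L, a chaperone of the HSP110 family, by 0.82 and by 1.06. PRDM1, the transcriptional repressor BLIMP1, measured 1.40 and 1.14 CPM in vehicle, 6.32 and 6.06 with 5-FU alone, 1.27 and 1.32 under 3-MB-PP1 alone, and 3.64 and 3.86 with both drugs. It rose by 2.28 (SE 0.24) and by 1.55 (SE 0.23), and its interaction of -0.73 did not pass (SE 0.35, edgeR adjusted p = 0.277). DCP1B, a cofactor of mRNA decapping, rose by 0.39 (SE 0.10) before DMSO, and its change of 0.14 before 3-MB-PP1 did not pass (SE 0.10, edgeR adjusted p = 0.271). The interaction of DCP1B, -0.25, did not pass either (edgeR adjusted p = 0.353).

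**Figure D3:**
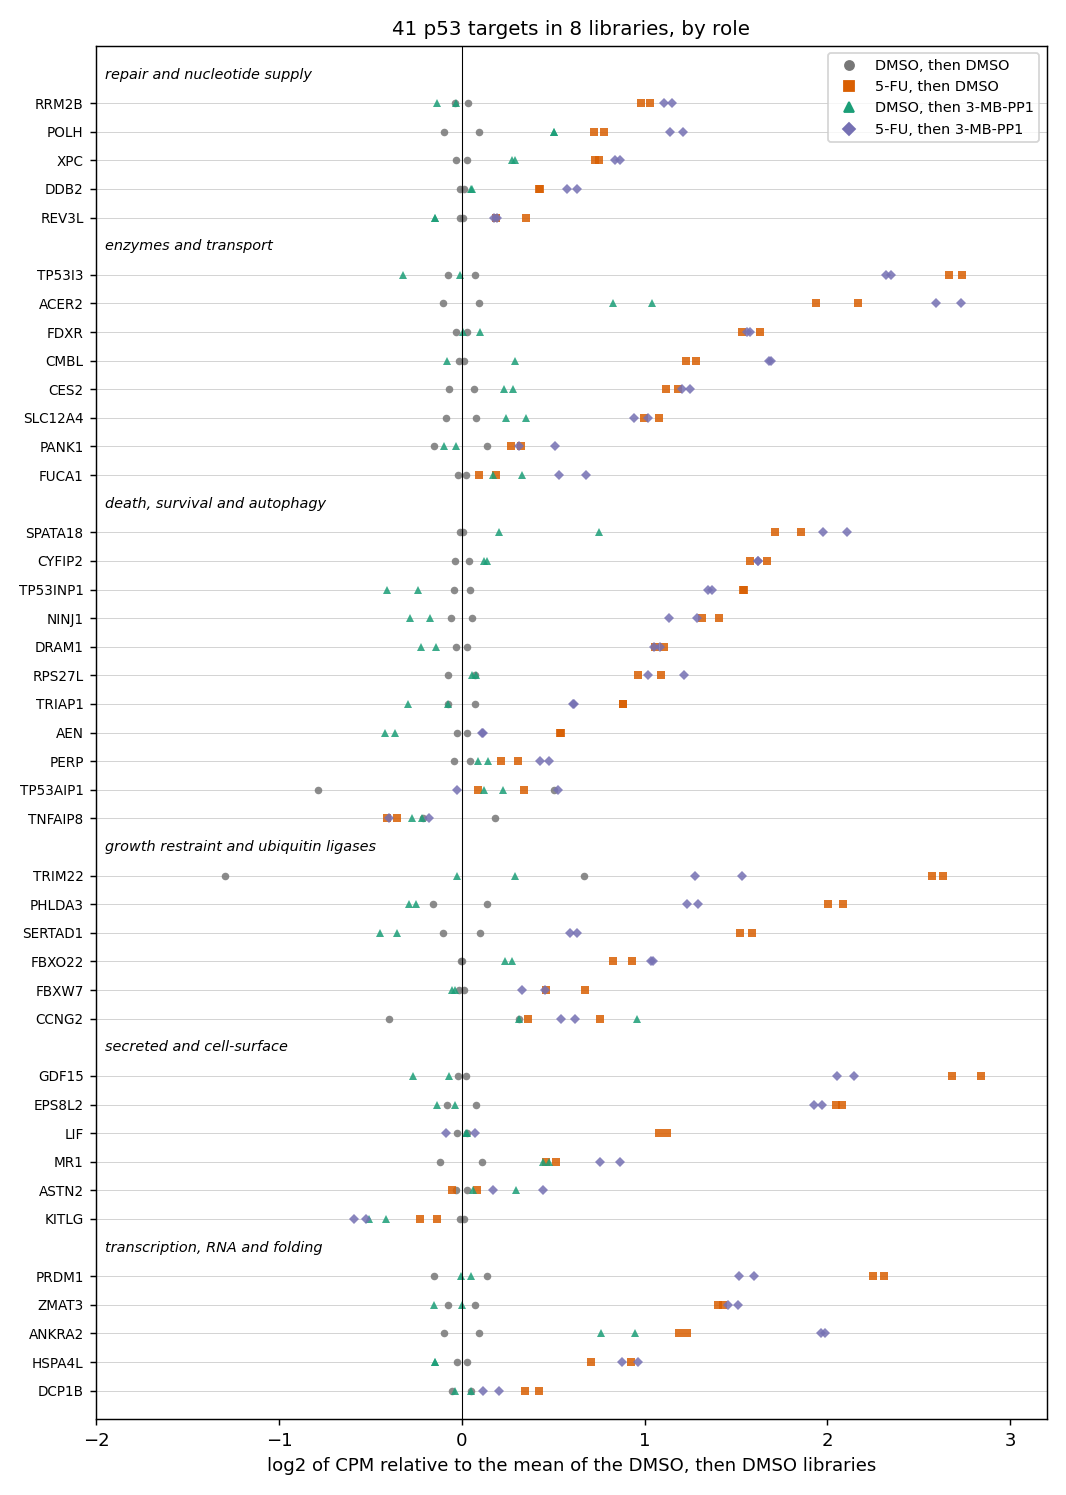
For each of the 41 genes, ordered by role, the level in each library is plotted as the log2 ratio to the mean of the vehicle libraries. The libraries that received 5-FU lie to the right for most genes, and LIF shows the 5-FU-alone libraries apart from the other 6.

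A rise with 5-FU before either second treatment did not mean an unchanged level, since 3-MB-PP1 could move both arms alike. Comparing both drugs with 5-FU alone, 10 of the 41 genes were higher and 10 lower with 3-MB-PP1, where 15.7% of all genes tested were higher and 17.2% lower. Comparing 3-MB-PP1 alone with vehicle, 9 were higher and 6 lower, where 11.6% of all genes tested were higher and 16.9% lower. As shares of the 41 genes these were 24.4% and 24.4% after 5-FU and 22% and 14.6% without it. Of the 41 genes 6 were higher in both comparisons, 6 were lower in both, and 0 were called in opposite directions. The 2 comparisons share no library. The share of such calls over all genes tested was not computed, so these counts are only a description.

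AEN, KITLG, PHLDA3, SERTAD1, TP53INP1 and TRIAP1 fell with 3-MB-PP1 in both settings. AEN measured 116 and 112 CPM in vehicle, 166.2 and 166.0 with 5-FU alone, 85.3 and 88.7 under 3-MB-PP1 alone, and 123.4 and 123.7 with both drugs. AEN fell by 0.43 with 3-MB-PP1 after 5-FU and by 0.40 without 5-FU. Its level with both drugs was not called different from vehicle (0.11, edgeR adjusted p = 0.107), although it rose by 0.51 with 5-FU before 3-MB-PP1. Several of these calls depended on the fit. The fall of TRIAP1 with 3-MB-PP1 alone, -0.21, was lost in DESeq2 (adjusted p = 0.127), in both limma fits, with the deepest library thinned (edgeR adjusted p = 0.115), and in 4 of the fits that left out a library. Without the first library of 3-MB-PP1 alone it was -0.08 (edgeR adjusted p = 0.595), and without the second vehicle library -0.13 (edgeR adjusted p = 0.342). Under spike-in scaling TRIAP1 stood at 0.04, while the median of all genes moved from -0.012 to 0.189, so it remained below that median. The fall of PHLDA3 with 3-MB-PP1 alone, -0.27, was lost in DESeq2 (adjusted p = 0.105), in both limma fits (0.122 and 0.128), without the first library of 3-MB-PP1 alone (0.211), and without the first vehicle library, where it was -0.12 (edgeR adjusted p = 0.515). That of TP53INP1 after 5-FU, -0.18, was lost in DESeq2 (adjusted p = 0.177), in both limma fits and without any 1 of the 4 libraries compared, and its fall with 3-MB-PP1 alone without the first library of that group (edgeR adjusted p = 0.159). The fall of SERTAD1 with 3-MB-PP1 alone was lost without the second vehicle library (edgeR adjusted p = 0.0821).

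GDF15, LIF, PRDM1 and TP53I3 fell with 3-MB-PP1 after 5-FU, and without 5-FU their changes were -0.20, 0.03, 0.01 and -0.08 and did not pass. The fall of PRDM1 was lost in DESeq2 (adjusted p = 0.0958). Of these 4, LIF and GDF15 had a called interaction, which tests the difference between the 2 settings. The lowest remaining levels, as a percentage of the mean CPM with 5-FU alone, were those of TRIM22 (43.8%), LIF (46.4%), SERTAD1 (51.9%), PHLDA3 (58.1%), PRDM1 (60.6%) and GDF15 (63.3%). The fall of TRIM22 did not pass (-1.18, SE 0.46, edgeR adjusted p = 0.0529).

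ACER2, ANKRA2, FBXO22, FUCA1, MR1 and POLH rose with 3-MB-PP1 in both settings. ANKRA2, an ankyrin-repeat protein, measured 8.10 and 7.08 CPM in vehicle, 17.3 and 17.9 with 5-FU alone, 12.9 and 14.7 under 3-MB-PP1 alone, and 30.1 and 29.6 with both drugs. It rose by 0.76 with 3-MB-PP1 after 5-FU and by 0.82 without 5-FU, and its level with both drugs stood at 169.9% of that with 5-FU alone. ACER2 stood at 152% of that level, FUCA1 at 138%, CMBL at 134.9% and POLH at 134%. ASTN2, CMBL, DDB2 and PERP rose after 5-FU and did not pass without it, and CES2, SLC12A4 and XPC did the reverse. Of these 7, SLC12A4 alone had a called interaction. The calls of DDB2, FBXO22 and MR1 after 5-FU were lost in DESeq2, with adjusted p-values of 0.0858, 0.0976 and 0.0548. That of FBXO22 was 0.10 without the first library of 5-FU alone (edgeR adjusted p = 0.292), where it had been 0.16. Those of ASTN2 and PERP were lost without the first library of 5-FU alone or the second with both drugs, and ASTN2 was then 0.15 without the latter (edgeR adjusted p = 0.305). The rise of FUCA1 with 3-MB-PP1 alone, 0.28, was lost in DESeq2 (adjusted p = 0.134), with the deepest library thinned (edgeR adjusted p = 0.147) and without either vehicle library. It was 0.17 without the first library of 3-MB-PP1 alone (edgeR adjusted p = 0.384). The rise of CES2 with 3-MB-PP1 alone was lost without the first vehicle library (edgeR adjusted p = 0.141). Across the 41 genes the effect of 3-MB-PP1 without 5-FU and after 5-FU had a Pearson r of 0.57 and a Spearman rho of 0.64, given as a description since genes are not independent samples.

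Relative to vehicle, 34 of the 41 genes stood higher with both drugs and 1, KITLG, lower, where 50.2% of all genes tested were called, 23.9% higher and 26.3% lower. The 6 that did not pass were AEN, DCP1B, LIF, TNFAIP8, TP53AIP1 and TRIM22. The largest values were those of ACER2 (2.66), TP53I3 (2.34), GDF15 (2.10) and SPATA18 (2.04). The call of CCNG2, a rise of 0.59 (edgeR adjusted p = 0.0487), was lost when the replicate number entered as a block (adjusted p = 0.0528), in DESeq2 (0.120), in both limma fits (0.104 and 0.116) and in 5 of the 8 fits that left out a library. Without the second vehicle library it was 0.27 (edgeR adjusted p = 0.463). The calls of ASTN2, PANK1 and REV3L with both drugs were also lost in at least 1 of the fits that left out a library.

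Genes with a short span in the genome made up most of those that were lower with 3-MB-PP1 after 5-FU. The span runs from the first to the last base of the kept transcript, introns included. With a limit of 10 kb, which was chosen after the values were seen, 6 of the 8 shorter genes were lower after 5-FU and 0 were higher, and 4 of the 8 had a lower interaction. The 8 were TRIAP1 (2.45 kb), GDF15 (3.02 kb), SERTAD1 (3.52 kb), PHLDA3 (3.68 kb), RPS27L (4.203 kb), LIF (6.41 kb), TP53I3 (7.78 kb) and TP53AIP1 (8.03 kb). Just outside the limit were FDXR (10.5 kb), CES2 (10.6 kb) and AEN (10.99 kb), of which AEN alone was lower after 5-FU. Of the 33 longer genes, 4 were lower and 10 higher. The median change with 5-FU alone was 1.33 in the 8 shorter genes and 0.88 in the 33 longer ones. Of all genes that rose with 5-FU alone 7.62% had a lower interaction, and 20.6% of those that rose by over 1 log2 unit. Span and the size of the rise were not separated here.

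Among all genes tested, 21% of those under 10 kb and 15.8% of the longer ones were lower with 3-MB-PP1 after 5-FU, while 9.76% and 18% were higher. The interaction was lower in 109 of 4293 genes under 10 kb and in 214 of 11412 longer ones, and in 1 of the 33 longer genes described here. RPS27L and TP53AIP1, both under 10 kb, had changes of 0.09 and 0.05 that did not pass. Across the 41 genes the log10 span and the change with 3-MB-PP1 after 5-FU had a Pearson r of 0.39 and a Spearman rho of 0.35. The same relation for 3-MB-PP1 without 5-FU had an r of 0.09.

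**Figure D4:**
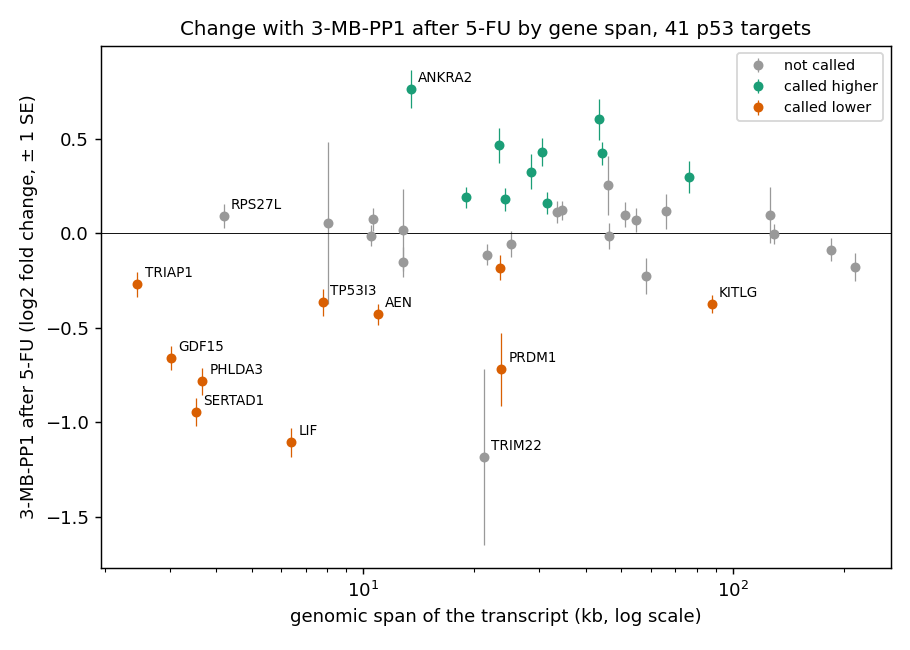
The log2 fold change of 3-MB-PP1 after 5-FU (vertical) is plotted against the genomic span of the kept transcript in kb on a log axis (horizontal) for the 41 genes. Of the 8 genes left of 10 kb, 6 were called lower and none higher, and of the 33 to the right, 4 were called lower and 10 higher.

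The genes were read beside the other induced genes. Of all 3345 genes that rose with 5-FU alone, 65.6% also rose before 3-MB-PP1 and 7.62% had a lower interaction, against 91.4% and 14.3% (5 of 35) of the genes described here. Among genes that rose by over 1 log2 unit, the shares were 74.1% and 20.6% of 428 genes, against 90.9% and 22.7% of 22. The 5-FU-alone libraries enter both the choice of these genes and the interaction, so the shares are given as a description. In a list of 23 other genes of the p53 pathway, which includes the genes left out of the 41, 20 rose with 5-FU alone and 20 rose before 3-MB-PP1. The interaction was lower in 7 of the 23 and higher in 1. The lower ones included MDM2 (-0.93) and CDKN1A (-0.66), 2 values that lie between those of LIF and SERTAD1.

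All changes above are relative to the bulk of genes, since the counts were scaled by TMM. Scaled on the ERCC spike-ins instead, the median of all genes tested moved from 0.00299 to 0.126 with 5-FU alone, from 0.00197 to -0.189 with 5-FU before 3-MB-PP1, and from 0.0139 to -0.306 for the interaction. The medians of the 41 genes were then 1.16, 0.745 and -0.425, so relative to all genes they stayed close to those under TMM. Under this scaling 40 of the 41 genes had a negative interaction, and 0 of them passed in edgeR, with 1 at an unadjusted p under 0.05. Over all genes tested 0 interactions passed under this scaling, against 657 under TMM. The spike-ins took between 2.18% and 4.16% of the authors' library totals and differed within groups.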

How the data were processed

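The deposited tables hold a whole read count per transcript, made by the authors without normalization, for 41735 rows, of which 92 are ERCC spike-ins. They also hold RPKM, which the authors computed from those counts by transcript length and library total. TopHat2 2.0.13 and hg19 are named per the submitters' processing notes. Which program counted the reads, with which strand setting and annotation, is not given in the sources used here. Rows without a symbol (6260) were named by accession where RefSeq allowed (5902), and 4156 whose gene already had a named row were set aside. Per gene the transcript with the most counts was kept, and the 41 genes came from 75 rows.

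Counts were analysed with edgeR 4.0.16 (R 4.3.3). The filterByExpr function left 15705 genes, TMM gave the scaling factors, and a quasi-likelihood model of the 4 groups left 4 residual degrees of freedom and a biological coefficient of variation of 0.0423. There were 6 comparisons, each two-sided and with its own Benjamini-Hochberg adjustment over all genes tested, and 0.05 was the limit for a call. Standard errors and 95% intervals come from the F statistics. Alternatives were DESeq2 1.42.0, limma 3.58.1 on log2(RPKM + 0.1) and log2(RPKM + 1), ERCC scaling, no filter, the longest transcript, the deepest library thinned, a replicate block, and each library left out, where a lone library was assumed to vary like the other groups. The fit was tested on simulated data.

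The 41 genes, the other lists and the rules for describing them were chosen with earlier results of these data known. Values for every library are given for genes with a called interaction, the largest changes with 5-FU alone and with 3-MB-PP1 after 5-FU, and genes that fell or did not pass with 5-FU alone. DDB2, FDXR and AEN were added after their values were seen. Whether the numbered replicates were separate cultures is not stated by the labels, and a p-value here reflects only the spread between these samples, which may be technical. Coordinates of transcripts are 1-based hg19, and those of promoter sequences are RefSeq GRCh38.p14.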

Additional observations from a re-analysis of the deposited data

Results flagged for a closer look

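In 5 of the 41 genes the effect of 5-FU differed between cells given DMSO and cells given 3-MB-PP1 afterwards, by edgeR's test of the interaction. The interaction on the log2 scale was -1.134 for LIF, -0.5641 for SERTAD1, -0.5091 for PHLDA3, -0.4582 for GDF15 and -0.3717 for SLC12A4. In the first 4 of these both libraries with both drugs lay below both libraries of 5-FU alone, and in SLC12A4 these 4 libraries overlapped.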

How the results depend on the processing

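Of the 41 genes, ERCC spike-in scaling left 10 called with 5-FU alone, 3 with 5-FU before 3-MB-PP1 and 0 for the interaction. It left 0 called with 3-MB-PP1 after 5-FU, 0 with 3-MB-PP1 alone and 7 with both drugs. Over all genes tested the ERCC-scaled fits called 243, 140, 0, 53, 112 and 426, in the same order. The main fits called 6911, 6196, 657, 5176, 4477 and 7888. At an unadjusted p under 0.05 the ERCC-scaled edgeR fits gave 24, 15, 1, 3, 3 and 21 of the 41 genes. The share of all genes at that limit was not computed. DESeq2 called 35, 33, 4, 15, 12 and 34 of the 41. Limma called 2 interactions with either pseudocount. Leaving out a library in turn, the called genes ranged from 35 to 38, 32 to 34, 2 to 7, 14 to 20, 11 to 17 and 32 to 35, in the same order of comparisons. Same-numbered libraries did not deviate together (correlations -0.0577 to 0.0434 between groups), so the numbers were not taken as pairs. With the number as a replicate block 37, 33, 5, 20, 15 and 34 genes were called, and 1 of 246 calls changed. Thinning the deepest library changed 2 calls. The change of ASTN2 with 3-MB-PP1 after 5-FU was -0.2213 for its longest transcript against 0.30 for the kept one, and that of TRIAP1 with 3-MB-PP1 alone was 0.04334 under ERCC scaling against -0.21. The cause was not tested. Genes with few counts, TRIM22 and TP53AIP1 above all, have wide intervals at this depth.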
